A study of Homo sapiens with 6 samples.

Results

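The glucocorticoid receptor (GR) peaks called without added ligand in an MR/GR cell were compared with those in a GR cell. The members were all peaks of the 3 vehicle lists of each line, taken by line and treatment and not by any measured value. They numbered 183 in the MR/GR cell and 588 in the GR cell, 771 of the 116356 peaks in all 12 lists. Both lines are stable derivatives of the human osteosarcoma line U-2OS: the GR cell was studied for GR alone, and the MR/GR cell has the mineralocorticoid receptor (MR) together with GR. The vehicle groups received DMSO for 2 hr and the treated groups 100 nM of the synthetic glucocorticoid dexamethasone for as long, in medium with fetal bovine serum that is not stated to be stripped of steroids. Chromatin was fixed, sonicated and immunoprecipitated with an antibody against GR in all 4 groups. The labels do not say whether a line is 1 clone, which promoter drives the receptors, or whether the 3 lists of a group came from separate cultures. Each receptor combination is thus 1 line, p-values reflect no more than list-to-list spread, possibly technical, and a peak list cannot show whether MR is present.

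Without hormone, GR is held largely in the cytoplasm in a complex with heat shock proteins and other chaperones. Binding of a glucocorticoid releases it to the nucleus, where it binds response elements in DNA, mostly in chromatin that is already open, and raises or lowers transcription of nearby genes. MR is its closest relative, binds the same kind of element, can pair with GR, and is also held by chaperones until a ligand binds. Peaks called with an antibody against GR in vehicle-treated cells therefore describe what is recovered when no ligand was added. They are called ligand-free below in that sense only, since the serum is not stated to be stripped of steroids.

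The vehicle lists were short, and those of the MR/GR cell were the most uneven. The GR-cell lists held 122, 238 and 228 peaks, and the MR/GR-cell lists held 132, 11 and 40. MR/GR list 1 was longer than GR-cell list 1, so the groups overlapped. The mean log2(peaks + 1) differed by -2.23 between the lines (MR/GR minus GR cell, SE 1.05, n = 3 lists each), and the two-sided exact permutation test gave p = 0.2, where 3 lists against 3 cannot go below 0.1. Without MR/GR list 2, the shortest, the difference was -1.35. The covered length was 36.1, 83.8 and 79.8 kb for the GR cell and 37.2, 3.12 and 11.8 kb for the MR/GR cell.

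Every peak of a vehicle list had the same width, 296, 352 and 350 bp for the GR cell and 282, 284 and 294 bp for the MR/GR cell. Width thus holds 1 value per list and does not vary from site to site. It was 46 bp smaller on average in the MR/GR cell (SE 18.7, two-sided exact permutation p = 0.1, the lowest attainable), so its peaks met others slightly less easily. The sequencing depth is unknown and the lists carry no height or score, so a locus without a peak may be unbound or under the calling threshold.

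**Figure D1:**
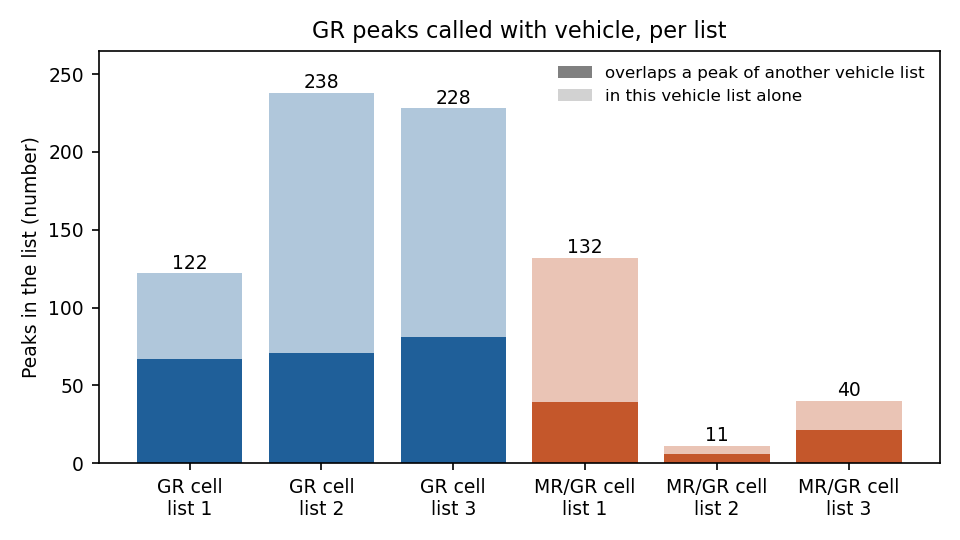
Number of GR peaks in each of the 6 vehicle lists (bar height), divided into peaks that overlap a peak of another vehicle list of either line (dark) and peaks in that list alone (pale). The lists hold 122 to 238 peaks for the GR cell and 11 to 132 for the MR/GR cell, and the pale part is 55, 167 and 147 peaks for the GR cell and 93, 5 and 19 for the MR/GR cell.

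Most ligand-free peaks were found in a single list. Merging peaks that overlapped by at least 1 bp gave 602 vehicle sites, and 486 of them (80.7%, Wilson 95% interval 77.4 to 83.7, counting error only) had a peak in 1 list of 6. The GR cell had a vehicle peak at 474 sites and the MR/GR cell at 160. Of the 602 sites, 442 were seen in the GR cell alone, 128 in the MR/GR cell alone and 32 in both. A site held by at least 2 of 3 lists was found 90 times for the GR cell and 20 times for the MR/GR cell, and 5 sites were held in both lines. With 1 list of a line left out, a site had to be in both remaining lists of that line. This rule is stricter, so the counts could only fall or stay. The GR-cell count was 49, 51 and 38 without GR-cell list 1, 2 and 3. The MR/GR count was 3, and the count for both lines 1, without MR/GR list 1 or without MR/GR list 3.

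Vehicle lists shared few peaks within a line, and on average fewer between lines. For each pair, the share of the shorter list's peaks that met the longer list was 31.5% ± 10.2 within the GR cell (SD over 3 pairs) and 34.8% ± 13.1 within the MR/GR cell (3 pairs). Between the lines it was 16.7% ± 11.3 over 9 pairs, with a range of 9.09% to 45.5%. It was 25.4% ± 17.5 over the 3 pairs of same-numbered lists and 12.4% ± 3.54 over the 6 other pairs. The highest value came from MR/GR list 2, of whose 11 peaks 5 met GR-cell list 2 and 3 met each of the other MR/GR lists. Pairs share lists, so these values are a description and carry no test.

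**Figure D2:**
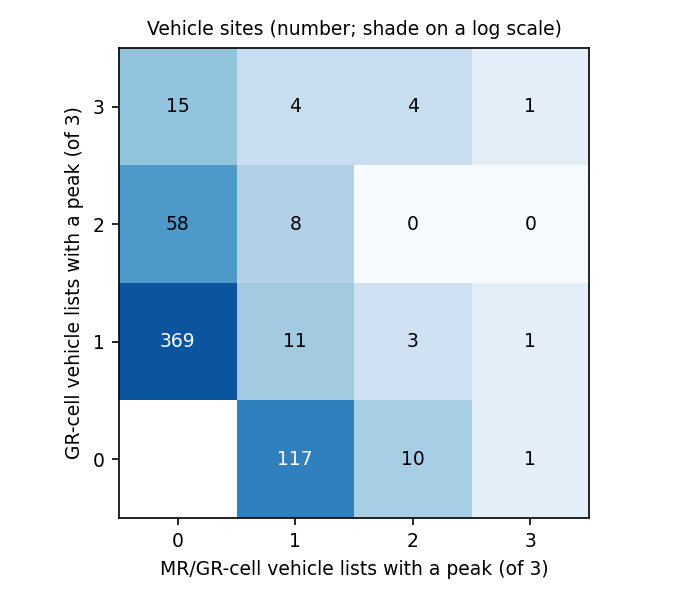
Number of vehicle sites by how many GR-cell vehicle lists (vertical axis) and how many MR/GR-cell vehicle lists (horizontal axis) have a peak there, with shade on a log scale. The largest cells are the 369 sites of 1 GR-cell list and the 117 sites of 1 MR/GR-cell list, and a single site is in all 6 lists.

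Sites that recurred among the lists of a line were more often shared with the other line. Of GR-cell sites in 1, 2 and 3 lists, 3.91% (15 of 384, Wilson 95% interval 2.38 to 6.34), 12.1% (8 of 66, 6.27 to 22.1) and 37.5% (9 of 24, 21.2 to 57.3) also had an MR/GR vehicle peak. Of MR/GR-cell sites in 1 list 16.4% (23 of 140, 11.2 to 23.4), and of those in at least 2 lists 45.0% (9 of 20, 25.8 to 65.8), had a GR-cell vehicle peak. List by list, 13.1%, 9.66% and 8.33% of GR-cell vehicle peaks met a vehicle peak of the MR/GR cell. In turn 21.2%, 45.5% and 25.0% of MR/GR-cell vehicle peaks met one of the GR cell. The shares of the lines did not overlap (difference 20.2 percentage points, SE 7.66, two-sided exact permutation p = 0.1, the lowest attainable), but each is capped by the other line's number of peaks, 183 against 588. The difference was 3.95 without GR-cell list 2, 31.7 without MR/GR list 1 and 13.2 without MR/GR list 2.

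The sites shared by the lines are given by position, in hg19 coordinates counted from 1. An annotation and sequence of that build were not used here, so no gene, exon or promoter is named and no sequence is printed. The site at chr3:119395796-119396159 was the one locus with a peak in all 6 vehicle lists, and it also had a peak in all 6 dexamethasone lists. Its vehicle peak centres lay 165 to 190 bp from the start of the site in the 6 lists. Its treated centres lay at 241, 242 and 252 bp for the GR cell and at 238, 166 and 179 bp for the MR/GR cell. All 3 treated GR-cell centres thus lay farther along than the GR-cell vehicle centres, while those of MR/GR treated lists 2 and 3 lay within the vehicle range. Such distances were common, with a median of 60 bp over all matches of GR-cell vehicle and treated peaks. At chr5:171433642-171434047 the pattern differed: all 3 MR/GR vehicle lists had a peak against 1 GR-cell list, and after dexamethasone a peak was called only in MR/GR list 2.

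The other 4 sites held in both lines were each in all 3 GR-cell vehicle lists and in MR/GR vehicle lists 1 and 3. They were chr3:128879908-128880330, chr17:72510418-72511223, chr2:200820188-200820616 and chr14:70826226-70826689. All 4 were in 3 treated GR-cell lists, and the first pair of them was in MR/GR treated lists 2 and 3. The chromosome 2 site was in MR/GR treated list 2 alone and the chromosome 14 site in list 1 alone. The chromosome 17 site was 806 bp wide, more than any single peak, and its vehicle centres were spread over 175 to 659 bp from its start, and the peaks at the ends of that range did not overlap each other. A further 4 sites were in 3 GR-cell vehicle lists and MR/GR list 1: chr11:118306787-118307285, chr11:47600255-47600725, chr12:133405360-133405909 and chr17:17991004-17991508. All 4 had a treated peak in 3 GR-cell lists, and treated MR/GR lists with a peak numbered 2, 1, 1 and 0.

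Few vehicle sites were in every list of one line and no list of the other, since most were in a single list. There were 15 sites in 3 of 3 GR-cell and 0 of 3 MR/GR vehicle lists, 2.49% of the 602. The reverse held for 1 site, or 0.166%. Among the 43713 sites merged in the same way from the 6 treated lists, the corresponding shares were 34.4% and 0.144%. These shares depend on how many sites recur in a line. Of the 24 vehicle sites in 3 of 3 GR-cell lists, 62.5% (15, Wilson 95% interval 42.7 to 78.8) had no MR/GR vehicle peak, and of the 22935 treated sites in 3 of 3 GR-cell lists, 65.6% (15056, 65.03 to 66.3) had no treated MR/GR peak. The former interval includes the latter share.

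The 15 GR-cell sites included chr19:41731815-41732263, which was in all 6 treated lists. The sites chr1:183441065-183441449, chr6:35227199-35227633, chr12:48499711-48500150 and chr12:132195301-132195693 were in 3 treated GR-cell lists and 1 treated MR/GR list. The sites chr1:42800864-42801295, chr6:79787844-79788372, chr11:46722151-46722547, chr18:67872808-67873347 and chr19:1383558-1384013 were in 3 treated GR-cell lists and in no treated MR/GR list. The remaining 5 were in 1 to 3 treated GR-cell lists and no treated MR/GR list. At 10 of the 15 loci none of the 6 MR/GR-cell lists, vehicle or treated, had a peak.

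In the other direction, the site in all 3 MR/GR vehicle lists and no GR-cell vehicle list was chr20:36661918-36662223, named here after its values were seen. After dexamethasone it was called in MR/GR list 2 and in no GR-cell list. Another 10 sites were in MR/GR vehicle lists 1 and 3 and in no GR-cell vehicle list. Of these, chr22:35887403-35887817, chr3:47517287-47517609, chr10:99185598-99185906 and chr20:34824216-34824535 had no peak in any treated GR-cell list, and all 4 were in treated MR/GR list 2. The site chr22:35887403-35887817 was also in treated MR/GR list 3. The other 6 were chr14:75643202-75643533, chr7:63386586-63386907, chr12:6798491-6798806, chr12:109915104-109915420, chr17:78965405-78965752 and chr12:49454466-49454911. Each had a treated peak in GR-cell list 1, with 1 or 2 GR-cell lists and 1 or 2 MR/GR lists in all.

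Which treated peaks the vehicle peaks met depended on the line and on single treated lists. In the GR cell 77.9%, 66.4% and 78.9% of vehicle peaks met a treated peak of the GR cell in at least 1 list, and 29.5%, 34.5% and 22.4% met one of the MR/GR cell. In the MR/GR cell the shares were 56.8%, 18.2% and 50% for treated GR-cell peaks and 54.5%, 54.5% and 55.0% for treated MR/GR peaks. MR/GR vehicle peaks were thus at GR-cell treated peaks less often (difference -32.7 percentage points, SE 12.6) and at MR/GR treated peaks more often (25.9, SE 3.51). Neither pair of groups overlapped, and p was 0.1 in each two-sided exact permutation test, the lowest attainable. The first difference was -21.0 without MR/GR vehicle list 2, which has 11 peaks.

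The higher share at MR/GR treated peaks rested on 1 treated list. Of the peaks of MR/GR vehicle lists 1, 2 and 3, 53.0%, 54.5% and 45.0% met treated MR/GR list 2, against 2.27%, 9.09% and 5.00% for treated list 1 and 12.9%, 9.09% and 25.0% for treated list 3. These 3 treated lists held 10459, 3713 and 6660 peaks. With treated MR/GR list 2 left out of the target, the difference between the lines fell from 25.9 to 5.35 percentage points (two-sided exact permutation p = 0.7). The GR-cell vehicle peaks also met list 2 most often among treated MR/GR lists, with 27.9%, 31.9% and 21.1%. In the treated GR cell list 1 was also met most often. It was met by 74.6%, 65.1% and 75.4% of GR-cell vehicle peaks, against 43.3% to 54.9% for lists 2 and 3, while the lists held 37650, 30912 and 26191 peaks. The lower share of MR/GR vehicle peaks at treated GR-cell peaks did not rest on that list. Its difference was -31.8, -32.1 and -32.8 percentage points with treated GR-cell list 1, 2 and 3 left out of the target. Depth, duplicates and the input used for each list were not given in the sources used here, and their part in these differences was not tested.

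**Figure D3:**
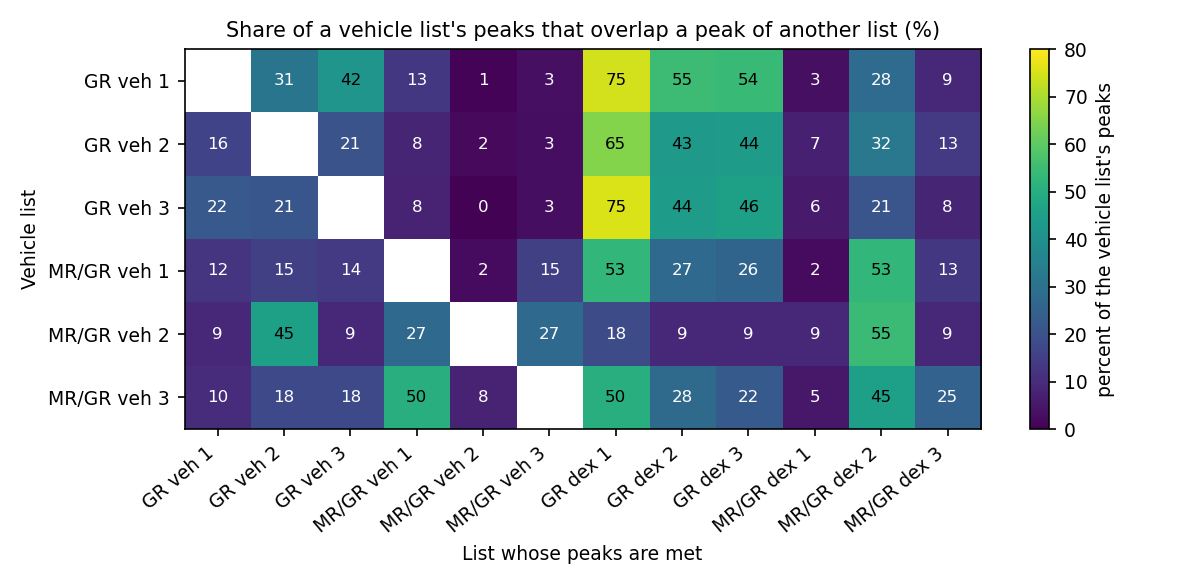
Percent of the peaks of each vehicle list (rows) that overlap by at least 1 bp a peak of each other list (columns, veh for vehicle and dex for dexamethasone). The columns of treated GR-cell list 1 and treated MR/GR list 2 are higher than those of their sister lists, and MR/GR vehicle lists meet treated MR/GR list 1 in 2.27% to 9.09% of their peaks.

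Seen from the treated sites, ligand-free peaks were scarce, also at the sites with the most reproducible treated peaks. A GR-cell vehicle peak was present at 344 of the 43713 treated sites (0.787%) and an MR/GR vehicle peak at 109 (0.249%). These shares are limited by the number of vehicle sites, 474 for the GR cell and 160 for the MR/GR cell. They do not measure how often a vehicle peak met a treated peak. At the 3017 sites in all 6 treated lists the shares were 0.729% (22 sites, Wilson 95% interval 0.482 to 1.10) and 0.0331% (1 site, 0.00585 to 0.188). The GR-cell share there was near that over all treated sites, while the MR/GR share was lower. At the 15056 sites in 3 treated GR-cell lists and no treated MR/GR list, the shares were 0.465% (70 sites) and 0.0332% (5 sites). The 1716 sites in treated MR/GR list 2 alone had the highest MR/GR share, 1.46% (25 sites, 0.989 to 2.14). The 7217 sites in treated GR-cell list 1 alone had a GR-cell share of 1.05% (76 sites, 0.842 to 1.32), against 0.220% (5 of 2273, 0.0940 to 0.514) for list 2 alone and 0.245% (2 of 817, 0.0672 to 0.888) for list 3 alone.

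**Figure D4:**
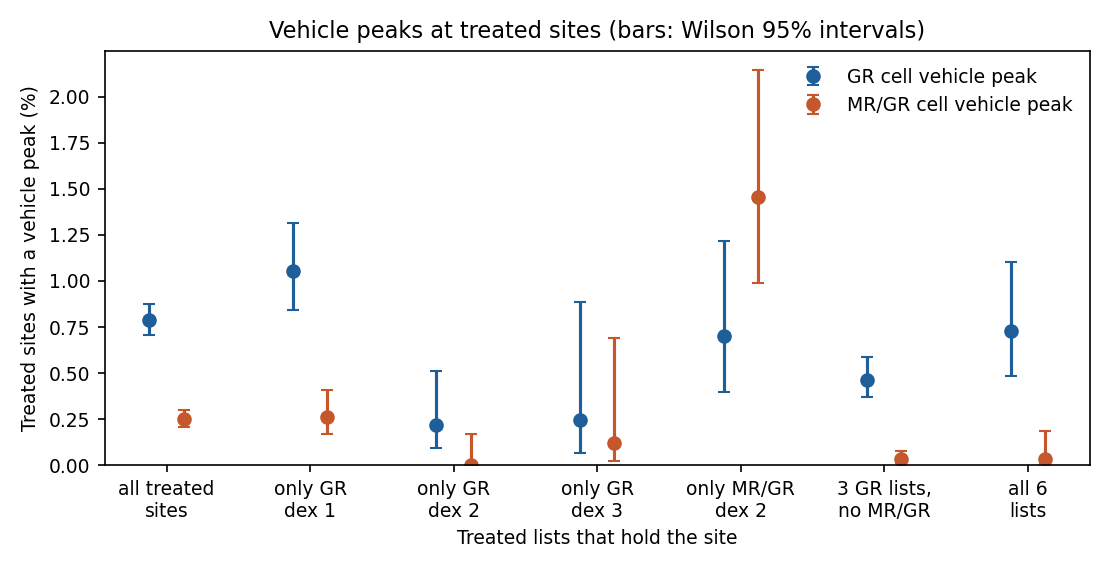
Percent of treated sites (vertical axis) that have a GR-cell or an MR/GR-cell vehicle peak, by the treated lists that hold the site (horizontal axis), with Wilson 95% intervals that cover counting error only. MR/GR vehicle peaks are at 1.46% of sites found only in treated MR/GR list 2 and at 0.0331% of sites found in all 6 treated lists.

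Dexamethasone sites with a GR-cell vehicle peak were held by the MR/GR cell about as often as all dexamethasone sites. Of the 22935 sites in 3 treated GR-cell lists, 22.5% were held by at least 2 treated MR/GR lists. With a GR-cell vehicle peak this share was 25.3% (37 of 146, Wilson 95% interval 18.98 to 33.0), and with GR-cell vehicle peaks in at least 2 lists it was 21.4% (12 of 56, 12.7 to 33.8). Both intervals include the share over all such sites. In treated MR/GR list 2 alone the sites with a GR-cell vehicle peak were met more often, 50% against 30.9% over all such sites, while in lists 1 and 3 they were met in 17.1% and 25.3%, against 14.5% and 24.6%.

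Vehicle sites seen in both lines had treated peaks more often than those seen in a single line. A treated peak in 3 GR-cell lists was found at 59.4% of the 32 sites of both lines (Wilson 95% interval 42.3 to 74.5), 27.1% of the 442 sites of the GR cell alone (23.2 to 31.5) and 6.25% of the 128 sites of the MR/GR cell alone (3.20 to 11.8). No treated peak in any of the 6 lists was found at 3.12% (1 site, 0.554 to 15.7), 29.2% (129 sites, 25.1 to 33.6) and 39.1% (50 sites, 31.05 to 47.7) of these groups. The 32 sites have peaks in more lists by construction, and the number of lists went with treated peaks also among sites of the GR cell alone. There, sites of at least 2 vehicle lists had no treated peak in 6.85% of cases (5 of 73, 2.96 to 15.1), against 33.6% (124 of 369, 28.98 to 38.6) for sites of 1 list. The 5 were chr4:152682007-152682372, chr11:34126954-34127315, chr11:66206185-66206536, chr12:123574290-123574700 and chr17:74481037-74481441, each in 2 GR-cell vehicle lists. Of the 20 MR/GR sites in at least 2 lists, 0 lacked a treated peak, which allows a share of up to 15.0%.

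Per list, 19.7%, 27.3% and 20.6% of GR-cell vehicle peaks and 25.8%, 45.5% and 30.0% of MR/GR-cell vehicle peaks met no treated peak. The difference was 11.2 percentage points (SE 6.45, exact permutation p = 0.2, two-sided), and the groups overlapped. It was 31.5 without treated MR/GR list 2 as a target and 3.54 without treated GR-cell list 1, so its size followed those lists, and it was 5.35 without MR/GR vehicle list 2. Of the GR-cell peaks with no treated peak, 10 of 24, 24 of 65 and 12 of 47 had a treated peak within 10 kb. In the MR/GR cell these were 10 of 34, 2 of 5 and 2 of 12.

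Where a vehicle and a treated peak met, their centres lay farther apart than those of paired treated peaks. The median distance between centres was 60 bp for GR-cell vehicle peaks and treated GR-cell peaks (40 to 83 bp over 9 pairs of lists). For MR/GR vehicle peaks and treated MR/GR peaks it was 49 bp (14 to 100.5 bp over 9 pairs). Between treated lists it was 28 bp for the GR cell and 31 bp for the MR/GR cell. Distances over 100 bp made up 27.9% and 25.8% of the vehicle-to-treated matches, against 6.39% and 7.76% of the matches between treated lists. Between vehicle lists the median was 57.5 bp within the GR cell, 39.5 bp within the MR/GR cell and 55 bp between the lines. Matches share peaks and lists, so these are descriptions.

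Ligand-free peaks of both lines lay more on gene-dense chromosomes than treated peaks did. Chromosomes 19, 17, 11, 16 and 22 had the most protein-coding genes per Mb, counting RefSeq genes of assembly GRCh38.p14 by chromosome and dividing by the span of the deposited peaks. They carried 27.0%, 29.0% and 30.3% of vehicle peaks in the GR cell, against 14.5% to 14.8% of treated peaks, a difference of 14.1 percentage points (SE 0.938). In the MR/GR cell they carried 29.5%, 18.2% and 30.0% of vehicle peaks, against 15.5% to 15.8% of treated peaks, a difference of 10.3 points (SE 3.87). In each line every vehicle list was above every treated list (two-sided exact permutation p = 0.1, the lowest attainable). The value of 18.2% is 2 of 11 peaks. The lines did not differ detectably with vehicle, with a difference of -2.86 points (SE 3.98, exact permutation p = 0.8, two-sided). It was 1.005 points without MR/GR list 2, and with the 3 most gene-dense chromosomes it was 0.473.

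**Figure D5:**
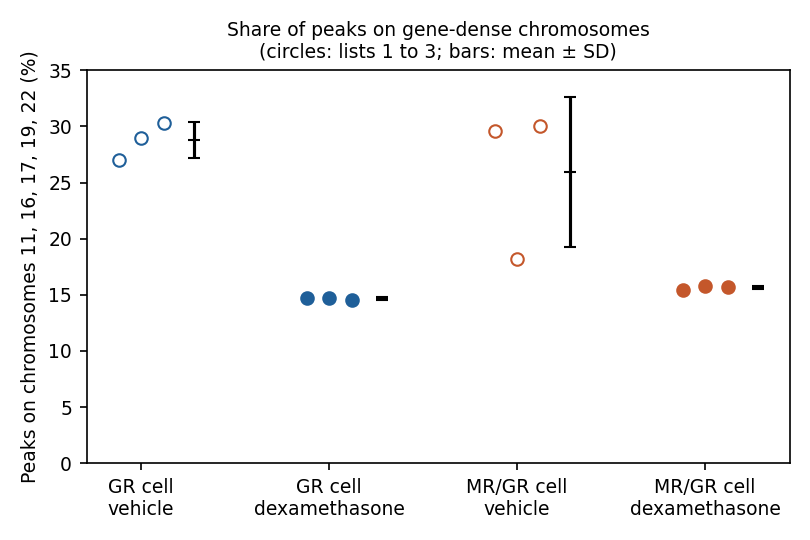
Percent of the peaks of each list that lie on chromosomes 11, 16, 17, 19 and 22 (circles, 3 lists per group, open for vehicle and filled for dexamethasone) with the mean and SD of the group beside them. Vehicle lists lie between 18.2% and 30.3% and treated lists between 14.5% and 15.8%.

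The gene-dense share was also seen at sites of single lines and at sites without treated peaks. It was 27.4% for sites of the GR cell alone, 29.7% for those of the MR/GR cell alone and 34.4% for those of both lines (11 of 32, Wilson 95% interval 20.4 to 51.7). GR-cell sites in at least 2 lists had 33.3% (30 of 90, 24.5 to 43.6). MR/GR sites in at least 2 lists had 20% (4 of 20, 8.07 to 41.6). That last interval includes the 15.5% to 15.8% found for treated MR/GR peaks. Sites with no treated peak had 32.2% (58 of 180, 25.8 to 39.4) and vehicle sites in 3 treated GR-cell lists 23.8% (35 of 147, 17.6 to 31.3), and these intervals overlap. Across 23 chromosomes, the number of vehicle peaks and of protein-coding genes had a Pearson correlation of 0.873 for the GR cell and 0.640 for the MR/GR cell. For treated peaks the values were 0.633 and 0.597. Longer chromosomes hold more of both, so these are descriptions.

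No single chromosome's share of vehicle peaks passed an adjusted threshold of 0.05 between the lines, which this design could not reach. Of 23 chromosomes, 5 (21.7%) had vehicle shares that separated the 3 lists of each line, with the MR/GR cell higher on 3, 7 and 20 and lower on 6 and 8. Some separations were narrow. On chromosome 8 the closest lists had 2.50% (MR/GR list 3) and 2.52% (GR-cell list 2). On chromosome 7 they had 3.79% (MR/GR list 1) and 3.07% (GR-cell list 3). The lowest p attainable for 1 chromosome by exact permutation is 0.1, and the smallest value after Benjamini-Hochberg adjustment over 23 chromosomes was 0.46. Chromosome 6, where the GR cell had 40 peaks and the MR/GR cell 1, was one of them. It carried 6.56%, 4.62% and 9.21% of GR-cell vehicle peaks and 0.758%, 0% and 0% of MR/GR-cell vehicle peaks. A count of 0 in 11 and in 40 peaks allows shares of up to 27.3% and 7.50%. After dexamethasone it carried 6.17% to 6.27% of GR-cell peaks and 6.19% to 6.44% of MR/GR-cell peaks, and these ranges overlap. Among its GR-cell vehicle sites, chr6:35227199-35227633 and chr6:79787844-79788372 were in all 3 lists, and the MR/GR peak lay in the shared site chr6:33239314-33239674.

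Vehicle peaks seldom had a neighbour. A second peak of the same list within 10 kb was found for 0%, 0% and 0.877% of GR-cell vehicle peaks and for 0%, 18.2% and 0% of MR/GR-cell vehicle peaks, where 18.2% is 1 pair among 11 peaks. Treated lists, which were far longer, had such neighbours for 26.1% to 35.1% of peaks for the GR cell and 15.3% to 23.5% for the MR/GR cell.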

How the data were processed

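GR ChIP-seq peaks were available as 12 deposited lists, 3 for each of 4 groups, and 2 input samples had no list here. Other values (scores or heights) are not given: each list holds the chromosome, start and end of a peak in hg19, as deposited by the authors. The submitters' processing notes name HOMER 4.8.3, Bowtie, Trim Galore 0.4, Picard 1.115 and SAMtools 1.3.1, but roles, settings, depth and the input behind each list are not given in the sources used here. Dexamethasone is labelled for the GR-cell input and vehicle for the MR/GR-cell input. List numbers come from the names of the lists.

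Sites were regions merged from peaks overlapping by at least 1 bp, checked against bedtools 2.31.1. Lists were the units of two-sided exact permutation tests (20 arrangements). Peak numbers were compared as log2(peaks + 1). Intervals are Wilson 95%, and a count of 0 was given the limit of 3 counts; both cover counting error only. Site counting was tested on simulated data with well-separated sites and closely placed peak centres. Distant centres, and peaks joined only through another peak, were not covered. Named sites were those shared by the lines (at most 20, in order of vehicle lists, treated lists and position), at most 10 of each line alone and at most 5 per line without a treated peak. Members, lists and tests were chosen with earlier results of these data known. Planned promoter, motif and gene-list results were not analysed here, since a genome and annotation of hg19 were not used. RefSeq genes (GRCh38.p14) were counted per chromosome only. Calculations ran in Python 3.11.15 with SciPy 1.17.1, pandas 2.3.3 and numpy 2.4.6, and plots in matplotlib 3.10.9.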

Additional observations from a re-analysis of the deposited data

How the results depend on the processing

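Of 129 alternatives for the comparisons, 108 kept the direction and side of 0.05 or stayed within the set range, 18 moved and 3 reversed. Some of the 108 were fixed in advance or nearly so. Leaving out a list of the other line could change a line's site count or share of dexamethasone sites only through merging. A replicate block keeps the difference by construction. Exact tests of 3 lists against 3 cannot pass 0.05, so stability is read from size and not from this tally. Sites held by the GR cell (90), the MR/GR cell (20) and both (5) were 474, 160 and 32 when 1 list sufficed and 24, 3 and 1 when all 3 were required, and both lines held 3 when peaks were matched by centres within 100 bp. Leave-one-out over lists, with at least 2 lists still required and thus a stricter rule, gave 38 to 90, 3 to 20 and 1 to 5. Of the vehicle sites held by the GR cell, 81.1% (73 of 90, Wilson 95% interval 71.8 to 87.9) were in at least 2 treated GR-cell lists. For the MR/GR cell, with its shorter treated lists, the share was 40% (8 of 20, 21.9 to 61.3). When 1 treated list of the line sufficed, the shares were 94.4% (85 of 90) and 95% (19 of 20). With at least 2 treated lists, they were 47.05% and 10% when 1 vehicle list sufficed. By centres within 100 bp the GR-cell share was 68.4%, and with 1 vehicle list left out it was 77.6% to 89.5%. The neighbour difference (5.77 points) ranged from -0.292, without MR/GR vehicle list 2, to 8.80. The gene-dense difference between the lines (-2.86) ranged from -4.90 to 1.005, the latter without MR/GR vehicle list 2, and was 0.473 with 3 chromosomes. Without 1 vehicle list the log2 difference in peaks was -3.09 to -1.35, the difference in sharing 3.95 to 31.7 points, and that in peaks without a treated peak 5.35 to 15.2 points. By centres, 35 of 45 named sites had the same difference in vehicle lists between the lines, 10 moved and 0 changed sign. Same-numbered vehicle lists of the lines had correlations over sites of 0.149, 0.0902 and 0.0498. The other pairs had -0.151 to 0.0280, so each same-numbered pair was the highest for both of its lists. The labels do not say whether the numbers pair the lists, and this was not tested. The main tests left the lists unpaired. A replicate block by list number leaves the log2 difference at -2.23 by construction. Its exact sign-flip test gave p = 0.5, where 3 pairs cannot go below 0.25. The comparisons on gene-dense chromosomes and of shares at treated peaks of each line, with their alternatives, and single treated lists left out as targets were chosen after seeing the data. The promoter, motif and gene-list alternatives were not run. Peak number per list, down to 11, limits every share.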
